A study of Mus musculus with 27 samples.

Results

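Interferon-stimulated genes are the genes that cells switch on when they sense viral or other foreign nucleic acid and answer to interferon. They were followed here as a set of 38 genes, chosen by symbol, in the livers of mice treated with the hyaluronan synthesis inhibitor 4-methylumbelliferone (4MU) or with lipid nanoparticles (LNP) carrying siRNA. All 38 were found among the 55414 genes of the deposited count table, and all 38 were among the 14114 genes tested, after removal of genes averaging under 10 counts over the libraries. The rule used only the names and no measured value, but the members were chosen with earlier results of these data known. The question was whether the siRNA particles moved these genes, and whether 4MU did.

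The samples were livers of 27 female Balb/c mice, 8 weeks old when the experiment began, in 8 groups. Fibrosis was induced by intraperitoneal carbon tetrachloride (CCl4) for 2 weeks, and each treatment was given with and without CCl4. There were 4 control mice, which by the labels received olive oil intraperitoneally and PBS in the tail vein and by the study's methods were gavaged with the 0.5% carboxymethyl cellulose in which 4MU was given, 3 mice given 4MU, 3 given siLuc-LNP, 3 given siHAS2-LNP, 2 given CCl4 only, 4 given CCl4 and 4MU, 4 given CCl4 and siLuc-LNP and 4 given CCl4 and siHAS2-LNP. 4MU was given daily by gavage from 2 days before the first CCl4 dose. Both particles were injected into the tail vein 2 times per week, at 1 mg/kg the first time and 0.5 mg/kg afterwards. siHAS2, a chemically modified siRNA, targets hyaluronan synthase 2, and siLuc targets luciferase, which mice lack. No group received empty particles, so the lipid and the RNA cannot be told apart in a comparison with control. CCl4-only mice were the comparator for every CCl4 treatment, and with 2 of them, 1 mouse weighs heavily in each of those comparisons.

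RNA from virus or from a delivered oligonucleotide can be sensed by the cytoplasmic helicases RIG-I (Rigi) and MDA5 (Ifih1), by toll-like receptors in endosomes and by the kinase PKR. Sensing leads to release of type I interferon, whose receptor signals to a transcription factor complex that holds STAT2 and IRF9. That complex binds the interferon-stimulated response element (ISRE) in the promoters of its target genes. Interferon gamma acts mainly through another element, GAS, and drives the GTPase and antigen processing genes most strongly. In the liver, Kupffer cells take up circulating particles and are a known source of such cytokines, and hepatocytes respond to them.

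The promoter sequences are shown as a description. The genes were chosen by name as interferon-stimulated, so a raised share with the ISRE follows from the choice and does not test the set. In a window from 250 bases before to 50 bases after the start of each gene's canonical GENCODE transcript (GRCm39), the core GAAANNGAAA, searched on both strands, was found in 21 of 38 members (55.3%), against 540 of 14081 tested genes with a promoter sequence (3.83%). The GAS core TTCNNNGAA was found in 9 of 38 members (23.7%) and in 1094 of the 14081 promoters (7.77%). The match nearest the start is given 5′ to 3′ for 5 members that recur in the results, with the core in capitals, and each lies upstream of the annotated gene, outside its exons and introns.
Isg15 (chr4:156285324-156285349, minus strand, 28 bases from the start): aggaaaccGAAACAGAAAatagctct
Usp18 (chr6:121222798-121222823, plus strand, 41 bases from the start): atctagggGAAAACGAAAgcttggcg
Rsad2 (chr12:26506554-26506579, plus strand, 110 bases from the start): tgttttctGAAAATGAAAgttggacc
Zbp1 (chr2:173060744-173060769, plus strand, 27 bases from the start): ttttcaaaGAAAGAGAAAatgaaact
Stat2 (chr10:128106137-128106162, minus strand, 197 bases from the start): agggaaagGAAACTGAAAccagggtg
The ISRE core was present in 6 of 8 sensors and regulators, 10 of 20 antiviral effectors, 5 of 7 interferon-inducible GTPases and 0 of 3 antigen processing genes. A match is a string of letters and not a measured binding site.

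Libraries held between 7044386 and 29425937 counts assigned to genes, with a median of 22109517. A count of 3, the limit that a count of 0 allows, was worth between 0.102 and 0.426 CPM, the count scaled to a common library total. Every member was well above this limit: the lowest count of any member in any library was 31. Has2, the gene that siHAS2 targets, had 0 counts in 25 of 27 livers and at most 2 counts, so its knockdown was not detectable at this depth and the siHAS2 label could not be checked on it. Hepatocyte markers made up 9.61 to 17.5% of counts in the different libraries. In bulk liver, fewer cells of one type and less RNA per cell cannot be told apart.

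All 38 genes were expressed in control liver. Compared per kilobase of exon, so that genes of different length can be ranked, the highest levels (mean CPM per kilobase over 4 control mice) were those of Bst2, a membrane tether of budding virus, at 208.5, and of the GTPase Iigp1 at 96.2. The other antiviral effectors spanned a wide range, with Ifi27 at 55.3, Isg15 at 52.8, Ifi35 at 9.25, Rtp4 at 8.33, Ifit3 at 7.55, Parp14 at 5.0, Mx2 at 4.27, Xaf1 at 3.90, Ifit1 at 3.42, Oasl1 at 2.89, Oas1a at 2.75, Ifi44 at 2.66, Rsad2 at 2.6, Cmpk2 at 2.29, Oas2 at 2.07, Oasl2 at 1.45, Mx1 at 1.24, Ifit2 at 1.06 and Trim30a at 0.810. Among the sensors and regulators, the transcription factors Irf7 (17.9), Stat2 (15.1) and Irf9 (8.92) and the deISGylase and receptor brake Usp18 (8.18) stood above the nucleic acid sensors Zbp1 (7.37), Ifih1 (4.95), Dhx58 (3.94) and Rigi (3.93). The other GTPases lay at 34.1 for Igtp, 28 for Irgm2, 21.4 for Irgm1, 10.8 for Gbp3, 10.3 for Gbp2 and 8.03 for Gbp7. The immunoproteasome subunits Psmb8 (21.9) and Psmb9 (17.7) and the peptide transporter Tap1 (9.85) were in the upper part of the order. In all 37 pairs of neighbours in this order, the ranges over the 4 mice overlapped.

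One control mouse stood apart within its group. In control mouse 2 the interferon-inducible GTPases averaged 1.23 above their mean over all 27 mice on the log2 scale, whereas the group's median was 0.16. Iigp1 had 424, 1207, 432 and 386 CPM in control mice 1 to 4, and Zbp1, a sensor of Z-form nucleic acid, had 26.1, 65.4, 17.8 and 17.3 CPM. The same mouse had the highest sum of inflammatory cytokine genes of the 4 controls, 200.3 CPM against 121 to 133. Comparisons with control are therefore given with and without this mouse where it changes them.

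**Figure D1:**
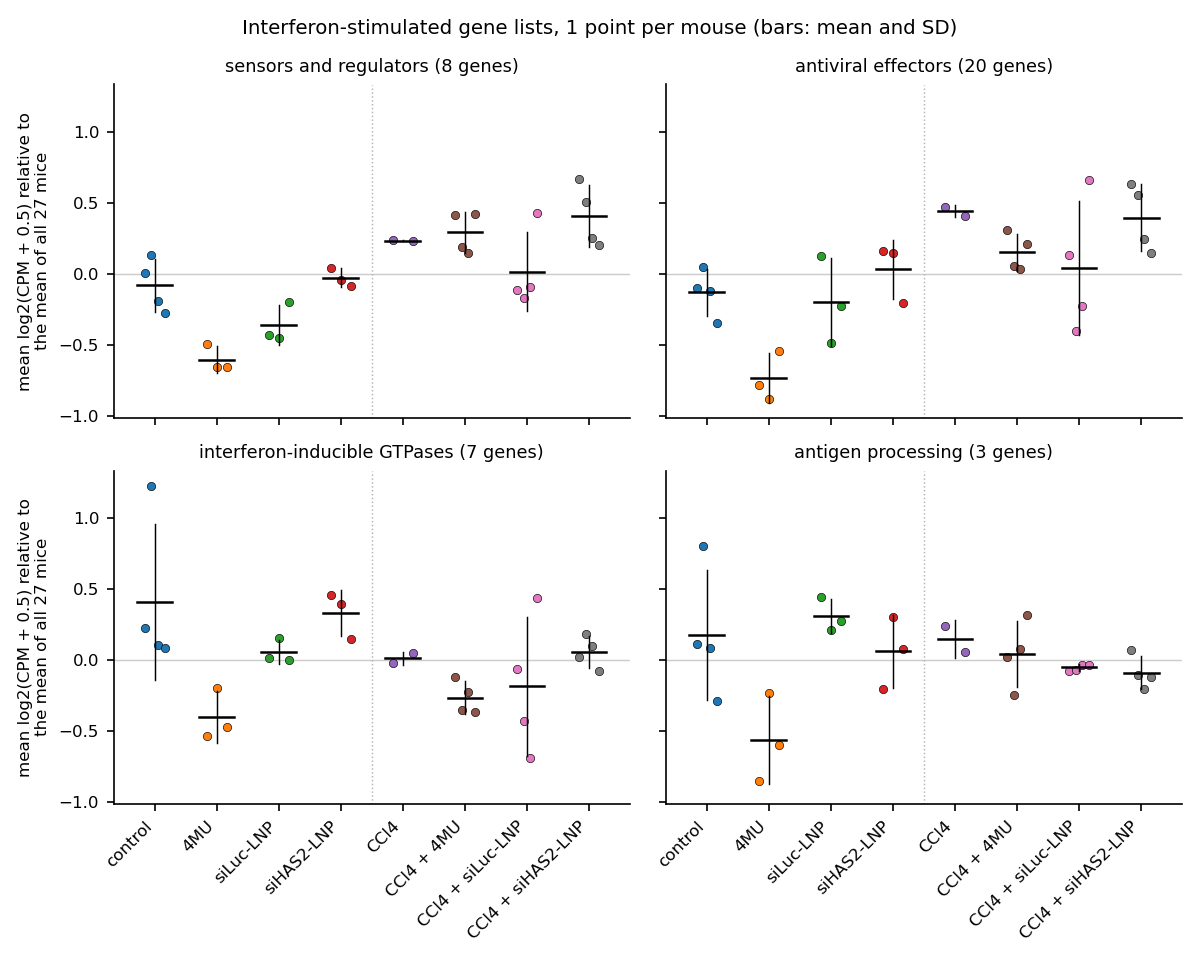
Mean level of the members of each list in each mouse (vertical axis, mean of log2 of CPM with 0.5 added, relative to the mean of all 27 mice) in the 8 groups, with 1 panel per list; points are mice and bars the mean and SD of a group. All members together lay between -0.68 and -0.56 in the 3 4MU mice and between -0.25 and 0.34 in the 4 control mice, and control mouse 2 stands at 1.23 in the GTPase panel.

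In livers without CCl4, no member passed the test with either particle. With siLuc-LNP, 0 of 38 members rose and 0 fell (edgeR quasi-likelihood test, adjusted p under 0.05), where 0.0850% of all tested genes were called higher and 0.128% lower. The unadjusted p was under 0.05 for 0 members in the higher direction (3.82% of all genes) and for 5 in the lower (2.98%), which were Gbp3, Irf9, Irgm1, Xaf1 and Iigp1. The siLuc-LNP mice lay wholly above the controls for 0 members (3.82% of all genes) and wholly below for 4 (3.43%). The median log2 fold change of the 38 was -0.18, against 0.01 for all tested genes, and 27 members were below 0. Without control mouse 2 the median was -0.09, with 24 below 0. DESeq2 and limma-voom also called 0 members.

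The member with the highest value under siLuc-LNP was Ifit2, which binds foreign RNA and restricts translation. It had 13.5, 5.86 and 9.75 CPM in the siLuc-LNP mice and 5.90, 4.84, 7.0 and 7.31 CPM in the controls. The groups overlapped, since siLuc-LNP mouse 2 was within the controls' range. Its log2 fold change was 0.63 (SE 0.42, adjusted p = 0.888). The lowest value was that of Iigp1, at -0.66 (adjusted p = 0.701), with 370, 432 and 360 CPM, and this difference rests on control mouse 2: without that mouse it was -0.10. Isg15, the ubiquitin-like protein often read as a summary of the response, had 35.4, 27.3 and 30.0 CPM in the siLuc-LNP mice and 39.7, 59.3, 42.0 and 24.1 CPM in the controls. The Isg15 values of the 3 treated mice thus lay inside the control range.

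With siHAS2-LNP, 0 of 38 members rose and 0 fell, with 0.0496% of all genes called higher and 0.0496% lower. The unadjusted p was under 0.05 for 1 member in each direction, Rsad2 higher (3.14% of all genes) and Irf9 lower (3.34%). The groups did not overlap for 1 member higher (5.21%) and 2 lower (4.19%). The median log2 fold change was -0.02 over all mice. Without control mouse 2 it was on the other side of 0, at 0.16, with 31 of 38 members above 0 and 0 called. DESeq2 and limma-voom called 0 members. Without the filter on low counts, 1 member was called, Rsad2 (adjusted p = 0.0270).

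Rsad2 encodes viperin, which makes a chain-terminating nucleotide that blocks viral RNA synthesis. It had 25.8, 22.7 and 12.6 CPM with siHAS2-LNP and 11.6, 9.38, 10.5 and 13.6 CPM in the controls. The first and second siHAS2-LNP mice were above every control and the other was among them. The log2 fold change was 0.85 (SE 0.33, adjusted p = 0.579). The siLuc-LNP mice had 23.1, 15.9 and 11.7 CPM of Rsad2, again with 1 of 3 among the controls, and a log2 fold change of 0.58. In siLuc-LNP mouse 1, the highest of its group in both Ifit2 and Rsad2, monocyte and neutrophil markers summed to 95.6 CPM, against 35.7 and 42.9 CPM in the other siLuc-LNP mice and 25.1 to 52.8 CPM in the controls; their part in these values was not tested. Rigi, the sensor of uncapped RNA ends, was the member that lay wholly above the controls with siHAS2-LNP, at 36.3 to 46.1 CPM against 30.0 to 35.9 CPM, with a log2 fold change of 0.31 (adjusted p = 0.900), and it had 27.3 to 31.8 CPM with siLuc-LNP. Its regulator Dhx58 overlapped the controls' 10.6 to 15.6 CPM with both particles, at 14.5 to 14.9 CPM and 9.56 to 12.4 CPM.

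The intervals give the size of change that these mice could have hidden at the time the livers were collected. The study's methods do not give the time from the last particle injection to collection. A change that had passed by then could not be seen here. The upper 95% limit of the log2 fold change was under 1, a doubling, for 35 of 38 members with siLuc-LNP and for 33 of 38 with siHAS2-LNP. The highest upper limit was 1.5 for siLuc-LNP, of Ifit2, and 1.53 for siHAS2-LNP, of Rsad2. With the 6 particle mice averaged against the 4 controls, which was chosen after seeing the data, 0 members rose (0.0921% of all genes) and 0 fell (0.0779%), and 1 was higher (3.06%) and 3 lower (2.78%) at an unadjusted p under 0.05. The median of the members was then -0.07.

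**Figure D2:**
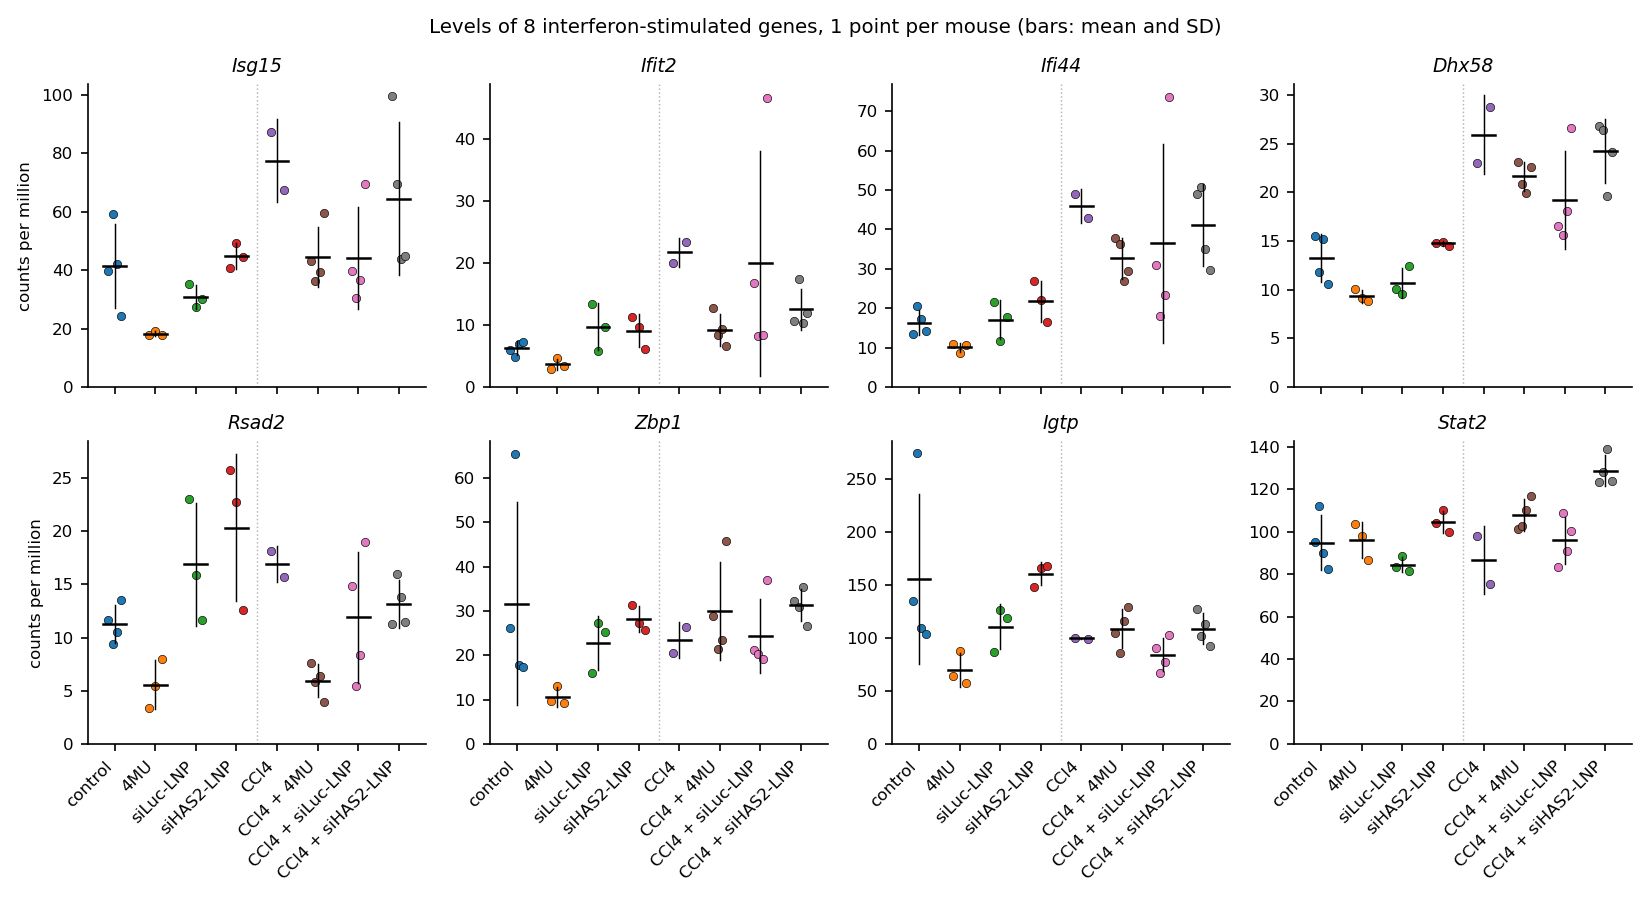
CPM of 8 members in each mouse, 1 panel per gene, with the 8 groups on the horizontal axis; points are mice and bars the mean and SD of a group, and each vertical axis starts at 0. Isg15 lies between 17.7 and 19.1 CPM in the 4MU mice, and in the CCl4 and siLuc-LNP group mouse 4 has 46.6 CPM of Ifit2 while the other 3 mice have 8.29 to 16.8.

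In CCl4-treated livers, 1 member passed the test with a particle, Stat2 with siHAS2-LNP. With CCl4 and siLuc-LNP against CCl4, 0 members rose (0.0567% of all genes) and 0 fell (0.191%). The unadjusted p was under 0.05 for 0 members higher (6.99%) and for 3 lower (7.19%), Isg15, Usp18 and Dhx58, and DESeq2 and limma-voom called 0. The median log2 fold change was -0.20, and 34 of 38 members were below 0. All 38 upper limits were under 1, and the highest was 0.94, of Gbp7. Stat2 had the highest value, 0.15.

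Isg15 had the lowest value. It had 87.5 and 67.5 CPM in the 2 CCl4 mice and 39.8, 30.3, 36.7 and 69.6 CPM with CCl4 and siLuc-LNP. Mouse 4 of the latter group was level with the lower CCl4 mouse and the other 3 were below both. The log2 fold change was -0.81 (SE 0.31, adjusted p = 0.229). Mouse 4 was high in many members, with 46.6 CPM of Ifit2, 73.6 CPM of Ifi44 and 69.3 CPM of Rigi, where the other 3 mice had at most 16.8, 31.1 and 41.2. Without it, 7 members were lower, Dhx58, Isg15, Ifit3, Ifit1, Ifi44, Oasl1 and Gbp3, where 4.4% of all genes were called lower, and Isg15 was at -1.12 (adjusted p = 0.0242). What set this mouse apart was not tested.

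With CCl4 and siHAS2-LNP against CCl4, 1 member rose, Stat2 (7.11% of all genes were called higher), and 0 fell (7.33% lower). Stat2, the subunit that carries the activation domain of the interferon-driven complex, had 124, 128, 139 and 124 CPM with CCl4 and siHAS2-LNP and 98.1 and 75.2 CPM with CCl4. The groups did not overlap, and the control mice had 82.3 to 112 CPM. The log2 fold change was 0.57, or 1.49-fold (SE 0.15, adjusted p = 0.0121). The call rested on the lower CCl4 mouse: without CCl4 mouse 2 the log2 fold change was 0.36 (adjusted p = 0.314) and 0 members were called. Without mouse 4 of the treated group 3 were called, Stat2, Irf9 and Mx2. Stat2 was also not called when only the compared groups were fitted (adjusted p = 0.0801), where 1 member was lower instead, Ifit2, or without the low-count filter (adjusted p = 0.119), where Mx2 was higher and Trim30a and Ifit2 were lower. Both particles averaged against CCl4, a comparison chosen after seeing the data, gave 0 higher (2.98% of all genes) and 0 lower (4.42%), with 1 higher (12.0%) and 0 lower (12.1%) at an unadjusted p under 0.05. The smallest adjusted p there was 0.0955, again of Stat2.

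The 2 particles were then compared with each other, which sets particles given on the same doses and schedule against each other. Without CCl4, 0 members were higher with siHAS2-LNP than with siLuc-LNP (0.0283% of all genes) and 0 were lower (0.0142%). At an unadjusted p under 0.05, 5 were higher (3.82%), Ifih1, Rigi, Stat2, Dhx58 and Irgm1, and 0 lower (5.12%), while DESeq2 and limma-voom called 0. The median was 0.28 and 29 members were above 0, and with each mouse left out in turn the median ran from 0.17 to 0.36. The siHAS2-LNP mice lay wholly above the siLuc-LNP mice for 11 members (8.22% of all genes), among them Ifih1, Rigi, Irf7 and Isg15, and wholly below for 1 (7.94%), Tap1. The 95% intervals of the 38 differences ran from -1.02 at the lowest to 1.43 at the highest, so differences of up to that size remain possible for single members. The highest value was that of Ifit1, which binds RNA lacking cap methylation, at 0.67 (adjusted p = 0.610), with 41.5, 33.4 and 23.6 CPM with siHAS2-LNP and 26.2, 17.3 and 18.3 CPM with siLuc-LNP. The lowest was that of Psmb8, at -0.37 (adjusted p = 0.646).

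With CCl4, again 0 members were higher with siHAS2-LNP than with siLuc-LNP (0.786% of all genes) and 0 were lower (0.305%). At an unadjusted p under 0.05, 12 of 38 were higher (8.70%) and 0 lower (7.94%), and the median was 0.28, with 33 members above 0. The count at an unadjusted p under 0.05 was 5 without mouse 1 of the siHAS2-LNP group and 20 without mouse 4 of the siLuc-LNP group, and the median ran from 0.17 to 0.44 as each mouse was left out. DESeq2 called 2, Mx2 and Stat2, and limma-voom 0. Mx2, a GTPase of the myxovirus resistance family, had 28.5, 25.4, 19.4 and 11.9 CPM with CCl4 and siHAS2-LNP and 9.51, 9.48, 10.6 and 14.8 CPM with CCl4 and siLuc-LNP. The 3 highest values belonged to siHAS2-LNP mice, and mouse 4 of each group lay in the range of the other. The log2 fold change was 0.95 (SE 0.24, 95% interval 0.45 to 1.45, adjusted p = 0.0550). The lowest value was that of Ifit2, at -0.68, and it rests on mouse 4 of the siLuc-LNP group: without it the difference was 0.14, and 1 member was called, Ifit1.

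The genes around the set were read from lists of the pathway. Of 10 interferon genes, 8 had 0 counts in all 27 livers, Ifna1, Ifna2, Ifna4, Ifna5, Ifnb1, Ifne, Ifnl2 and Ifnl3, which allows each up to 3 counts per library. The gene of interferon gamma, Ifng, had at most 7 counts and Ifnk at most 8. The 6 markers of plasmacytoid dendritic cells, the main makers of interferon alpha, summed to 0.4 to 1.46 CPM per liver, and none passed the filter. Of the receptors and kinases of the pathway (9 tested), the RNA and DNA sensors and adaptors (15 tested), the transcription factors and brakes (10 tested) and the inflammatory cytokines and chemokines (11 tested), 0 were called in either direction with siLuc-LNP or siHAS2-LNP against control. The livers did hold a particle-associated change elsewhere, in 1 of 6 Kupffer cell markers called lower with each particle and 0 called higher. Of all genes, 0.128% were called lower with siLuc-LNP and 0.0496% with siHAS2-LNP. The median log2 fold change of the 6 markers was -0.25 with siLuc-LNP and -0.28 with siHAS2-LNP, so the change was that of a single gene. Marco, a scavenger receptor of Kupffer cells, had 71 to 162 counts in the controls, 1 to 10 with siLuc-LNP and 6 to 17 with siHAS2-LNP, with log2 fold changes of -4.46 (SE 0.72, adjusted p = 0.00232) and -3.47 (adjusted p = 0.0174).

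**Figure D3:**
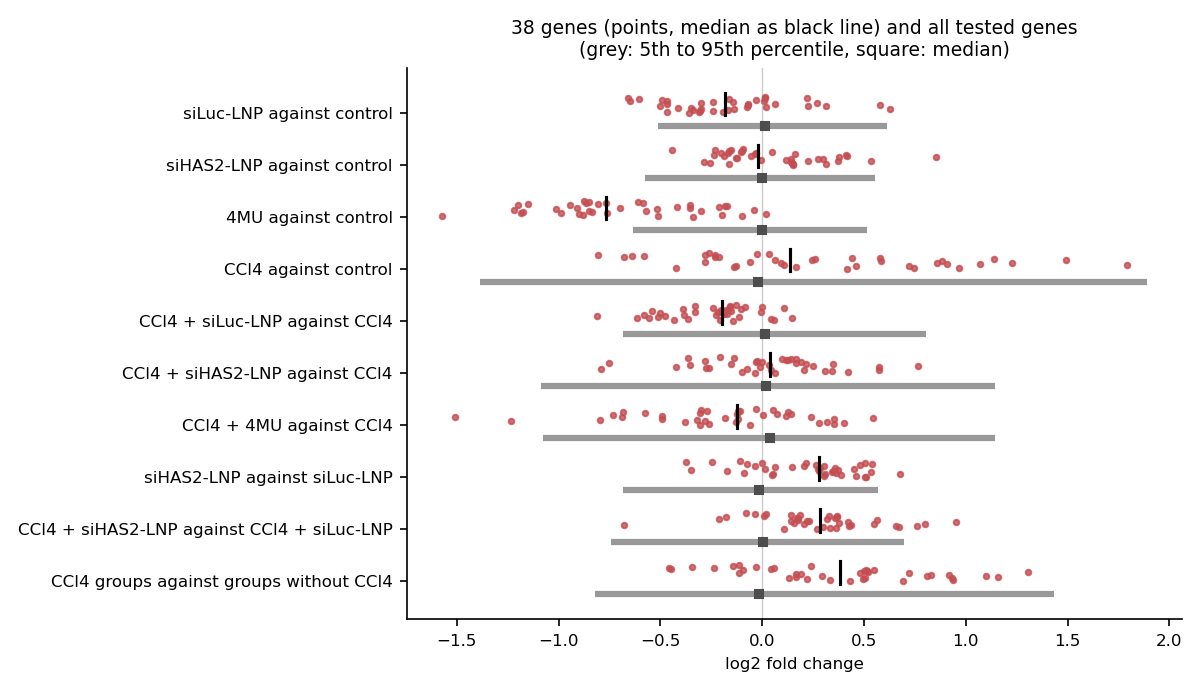
Log2 fold change (horizontal axis) of the 38 members in 10 comparisons; points are genes, one mark gives the members' median, and the bar and its mark give the 5th to 95th percentile and the median of all 14114 tested genes. The members' median is -0.18 and -0.02 for siLuc-LNP and siHAS2-LNP against control, -0.77 for 4MU against control and 0.38 for the CCl4 groups against the groups without CCl4.

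4MU without CCl4 was the treatment with the lowest levels of the set, though no single gene passed the main test. Against control, 0 members rose (0.00709% of all genes) and 0 fell (0% lower) by edgeR. At an unadjusted p under 0.05, 0 were higher (3.15%) and 24 of 38 were lower, against 3.70% of all genes. The 3 4MU mice lay wholly below the 4 controls for 23 members (4.29% of all genes) and wholly above for 0 (3.47%). The median log2 fold change was -0.77, against 0.00 for all tested genes, and 37 of 38 members were below 0. By DESeq2, 11 members were lower (0.262% of all genes), Tap1, Zbp1, Igtp, Irgm1, Xaf1, Ifit3, Isg15, Gbp3, Gbp2, Psmb9 and Mx1. By edgeR without the filter on low counts, 16 were lower (0.305%), and by limma-voom 0. Under each of these tests and with any 1 mouse left out, between 35 and 38 of the members were below 0.

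The median was -0.43 over the 8 sensors and regulators, -0.64 over the 20 antiviral effectors, -0.86 over the 7 GTPases and -0.85 over the 3 antigen processing genes. The unadjusted p was under 0.05 for 4, 10, 7 and 3 of them. Without control mouse 2, the median over all members was -0.57 and 17 had an unadjusted p under 0.05. Over the lists in the same order it was then -0.46, -0.60, -0.53 and -0.61, so the lower medians of the last 2 lists rest in part on that mouse. The 7 GTPases then lay between -0.93 and -0.30 and the 3 antigen processing genes between -0.62 and -0.35.

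Zbp1 had the lowest value. Its levels were 9.57, 13.1 and 9.11 CPM with 4MU and 26.1, 65.4, 17.8 and 17.3 CPM in the controls, with no overlap. The log2 fold change was -1.57, or 0.337-fold (SE 0.37, 95% interval -2.32 to -0.82, adjusted p = 0.180), and -0.95 without control mouse 2. Isg15 had 17.9, 19.1 and 17.7 CPM, all under the lowest control at 24.1 CPM, with a log2 fold change of -1.18 (adjusted p = 0.230). Tap1, which carries peptides into the endoplasmic reticulum for class I antigen presentation, had 28.6, 39.1 and 30.4 CPM with 4MU and 60.5, 85.5, 47.0 and 43.6 CPM in the controls, again with no overlap, and the smallest adjusted p of the set, 0.164, at a log2 fold change of -0.85. Igtp, a GTPase of the vacuole membranes around intracellular parasites, had 64.4, 87.5 and 57.3 CPM against 134, 274, 109 and 103 CPM, at -1.15.

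Stat2 was the exception, with 104, 98.0 and 86.8 CPM in the 4MU mice and 95.1, 112, 89.9 and 82.3 CPM in the controls, and a log2 fold change of 0.02. Mx2, at -0.04, was also level with control. T and NK cell markers, summed, had 5.82 to 7.96 CPM in the 4MU mice and 8.54 to 9.91 in the controls, so that these groups did not overlap either. Hepatocyte markers, summed, had 122300 to 151300 CPM in the 4MU mice and 158400 to 195300 CPM in the controls, again without overlap. This sum is mostly Alb, with 1972671 to 3205026 counts in the 4MU mice. Of the 6 hepatocyte markers, 0 were called in either direction, and their median log2 fold change was -0.22. Hnf4a did not follow the sum, with 11081 to 12752 counts against 7173 to 11963 in the controls. Monocyte and neutrophil markers had 13.7 to 41.1 CPM and 25.1 to 52.8 CPM, and Kupffer cell markers 154 to 347 CPM and 302 to 472 CPM. Ifng had 1 or 2 counts in each control and 1 to 7 in the 4MU mice. The part of these cells in the lower member levels was not tested.

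In CCl4-treated livers 1 member was lower with 4MU. Against CCl4, 0 members rose (8.28% of all genes) and 1 fell, Rsad2 (10%), and the median was -0.13. Rsad2 had 7.61, 5.83, 6.42 and 3.94 CPM with CCl4 and 4MU and 18.1 and 15.7 CPM with CCl4, without overlap and also under the lowest control at 9.38 CPM. The log2 fold change was -1.51, or 0.352-fold (SE 0.37, adjusted p = 0.00741), and without CCl4 mouse 2 it was -1.64 with an adjusted p of 0.0686. Isg15 had 43.2, 36.2, 39.2 and 59.5 CPM and Zbp1 28.9, 21.5, 23.5 and 45.9 CPM, and neither passed the test. Zbp1 was on the other side of 0 than without CCl4, at 0.35 against -1.57.

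The difference between the 4MU effect with and without CCl4 was tested as an interaction. It was positive in 34 of 38 members, with a median of 0.51, and 3 members passed the test (2.72% of all genes were called higher and 2.95% lower). These were Zbp1 at 1.92 (SE 0.54, adjusted p = 0.0392), Igtp at 1.28 (adjusted p = 0.0494) and Tap1 at 0.90 (adjusted p = 0.0464). None of the 3 calls was firm: when each of the 13 mice in these groups was left out in turn, 0 members were called in 9 of the 13 fits, among them those without control mouse 2 and without either CCl4 mouse. For the particles, the interaction with CCl4 passed for 0 members with siLuc-LNP (0% of all genes higher, 0.00709% lower). At an unadjusted p under 0.05 the count with siLuc-LNP was 1 higher (4.61%) and 1 lower (5.38%). With siHAS2-LNP 1 member passed, Irf9 at 0.60 (SE 0.17, adjusted p = 0.0331), where 3.33% of all genes were called higher and 3.07% lower. Irf9, the DNA-binding subunit of the interferon complex, had 44.1, 42.3 and 43.7 CPM with siHAS2-LNP and 54.6, 51.0, 49.4 and 52.2 CPM in the controls, but 68.0, 62.4, 57.3 and 50.5 CPM with CCl4 and siHAS2-LNP and 47.6 and 46.4 CPM with CCl4. Irf9 overlaps Rnf31 on the same strand, so reads in the shared part are ambiguous, and its interaction lost the call in 11 of 13 fits that left out 1 mouse. It also lost the call when only the compared groups were fitted and without the low-count filter, where Rsad2, Ifit2 and Trim30a were called lower instead.

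**Figure D4:**
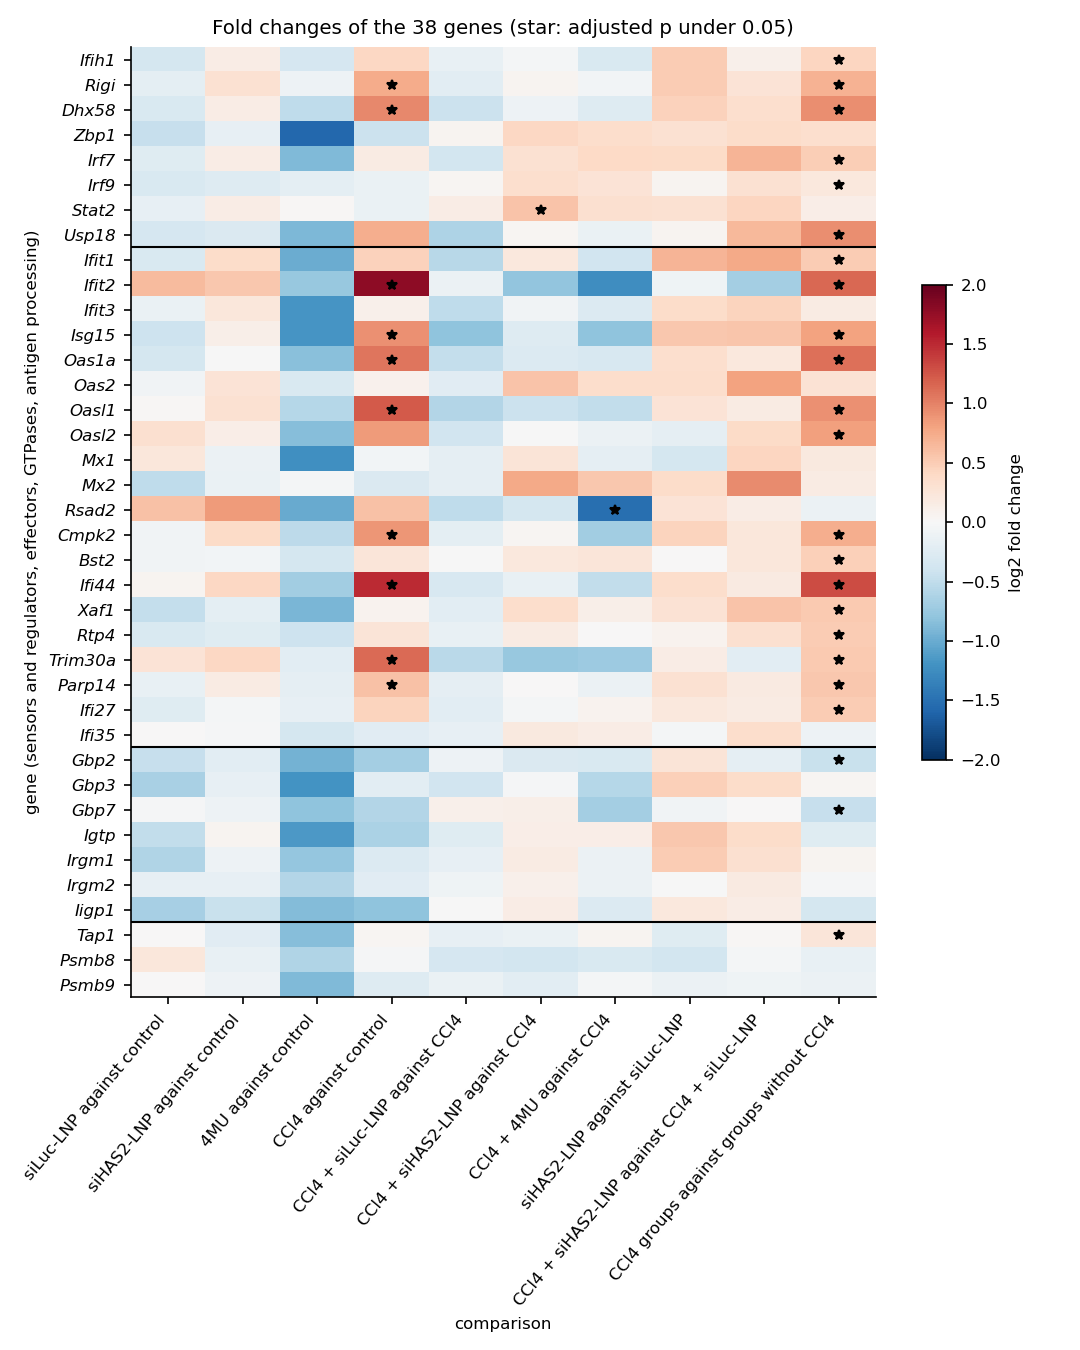
Log2 fold change of the 38 members (rows, by list) in 10 comparisons (columns), on a colour scale centred on 0; a star marks an adjusted p under 0.05. The 4MU column against control has 37 of 38 values below 0 and no star, and the column of the CCl4 groups against the groups without CCl4 has 21 stars on positive and 2 on negative values.

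Part of the set was higher in the groups given CCl4. Over all mice, the 4 CCl4 groups against the 4 groups without CCl4, 21 of 38 members rose (26.3% of all genes) and 2 fell (25.6%), with a median of 0.38. This contrast averages over treatments and so includes the low 4MU group. The mean of all members, relative to all 27 mice on the log2 scale, was -0.632 with 4MU and 0.0948 with CCl4 and 4MU. It was 0.00335 in control and 0.294 with CCl4 only. With siLuc-LNP it was -0.146 without CCl4 and -0.0147 with it, and with siHAS2-LNP 0.0759 and 0.296. The contrast without the 4MU groups was not tested. The higher members were 6 of 8 sensors and regulators, 14 of 20 antiviral effectors, 1 of 3 antigen processing genes and 0 of 7 GTPases. The 2 lower ones were GTPases, Gbp7 at -0.46 (adjusted p = 0.0404) and Gbp2 at -0.45 (adjusted p = 0.00378). The call of Gbp7 was lost in 16 of 27 fits that left out 1 mouse, with an adjusted p of up to 0.119. Without control mouse 2, 24 members rose and 1 fell. Of the 21 higher members 11 held the ISRE core described above, and of the other 17 members 10 did.

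Ifi44, an interferon-induced protein that restrains cell proliferation, had the largest increase over all mice, 1.30 or 2.47-fold (SE 0.17, adjusted p = 6.25e-07). It had 49.0 and 43.0 CPM in the CCl4 mice and 13.5, 20.6, 17.1 and 14.1 CPM in the controls. Ifit2 followed at 1.16 (adjusted p = 0.000112), then Oas1a, a maker of the 2-5A second messenger, at 1.10 (adjusted p = 1.19e-08), Dhx58 at 0.94 (adjusted p = 3.48e-09) and Usp18 at 0.93 (adjusted p = 3.13e-06). The smallest adjusted p was that of Dhx58. Its levels were 23.0 and 28.8 CPM with CCl4, 19.9 to 23.2 with CCl4 and 4MU, 15.6 to 26.6 with CCl4 and siLuc-LNP and 19.6 to 26.9 with CCl4 and siHAS2-LNP, and 8.80 to 15.6 over all groups without CCl4. The groups with and without CCl4 did not overlap, but the highest mouse without CCl4 and the lowest with it were nearly level.

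In CCl4 mice alone against control, 10 members rose (18% of all genes) and 0 fell (16.1%). Ifit2 was the highest, with 20.1 and 23.4 CPM against 4.84 to 7.31 CPM, a log2 fold change of 1.79 or 3.46-fold (SE 0.46, adjusted p = 0.00382). Ifi44 was at 1.49 or 2.81-fold (SE 0.35, adjusted p = 0.00198) and Oasl1, a 2-5A synthetase-like protein without the synthetase activity, at 1.23 or 2.34-fold (SE 0.30, adjusted p = 0.00250). Trim30a, a brake on toll-like receptor signalling, was at 1.14 or 2.2-fold (SE 0.37, adjusted p = 0.0196). Oas1a had 53.5 and 38.8 CPM against 18.6 to 24.5 CPM, at 1.07 or 2.1-fold (SE 0.23, adjusted p = 0.00106). Dhx58, Isg15, Cmpk2, Rigi and Parp14 rose by 0.97, 0.91, 0.88, 0.75 and 0.58 on the log2 scale. Without CCl4 mouse 2 the count was 6, Oas1a, Ifi44, Dhx58, Rigi, Ifit2 and Oasl1. Over all 38 members 15 were below 0 and the median was 0.13, and without control mouse 2 there were 9 below 0 and the median was 0.30. None of the 7 GTPases passed the test, and the number of them below 0 was 7 with control mouse 2 and 5 without it. Monocyte and neutrophil markers, summed, had 61.5 and 86.7 CPM in the CCl4 mice and 25.1 to 52.8 CPM in the controls. Those of plasmacytoid dendritic cells were also higher, at 1.46 and 1.02 CPM against at most 0.944, but none passed the filter. T and NK cell markers were lower, at most 6.66 CPM against 8.54 to 9.91. So were the sums of Kupffer cell markers, at 283 and 262 CPM against 302 to 472, and of hepatocyte markers, at 127500 and 72610 CPM against 158400 to 195300. Within the Kupffer cell list, 1 of 6 markers was called higher and 1 lower. Marco went against the sum, with 308 and 835 counts against 71 to 162 in the controls. Of 6 hepatocyte markers, 0 were called higher and 3 lower. Sinusoidal endothelial markers overlapped. The part of these cells in the higher or lower member levels was not tested.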

How the data were processed

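Livers of 27 mice in 8 groups were profiled by RNA-seq of polyadenylated RNA, with a directional kit and paired reads. The deposited table holds whole-number counts per gene; per the study's methods and processing notes, the authors trimmed reads with Trimmomatic 0.39, aligned them with HISAT2 to GRCm39 and counted pairs with featureCounts without multi-mapping reads. The HISAT2 version and the strand setting of the counting are not given in the sources used here. Reads shared by near-identical members (Ifit, Oas, Gbp, Irgm, Mx and Trim30 families) are thus lost, Balb/c reads were aligned to another strain's genome, and members that overlap another gene are uncertain, on the same strand (Igtp and Irgm2, Irf9 and Rnf31) or the opposite one (Irf7 and Phrf1, Tap1 and Psmb9, Ifit1 and Ifit1bl2, Oas1a and Oas1d, Rtp4 and Masp1, Ifi27 and Ifi27l2a, Ifi35 and Vat1). Counts were fitted over all 8 groups with the quasi-likelihood test of edgeR 4.0.16 (R 4.3.3, TMM scaling, mean of at least 10 counts) and p-values were adjusted by the Benjamini-Hochberg method over the 14114 genes, with a threshold of 0.05. CPM are scaled by TMM. Alternatives were DESeq2 1.42.0, limma-voom (limma 3.58.1), other filters and scalings, a replicate block, and each mouse left out. Scripts were tested on simulated data. Replicate numbers showed no pairing of mice: correlations of same-numbered mice had a median of -0.0167 and a range of -0.32 to 0.293 over 83 pairs. Mice with other numbers had a median of -0.0124 and a range of -0.455 to 0.455. No replicates differed by less than sampling noise. All 38 members are named, with full statistics for at most 5 per direction and comparison past the threshold, and otherwise the extreme value in each direction; other genes shown were chosen after their values were seen. Members and lists were chosen with earlier results of these data known.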

Additional observations from a re-analysis of the deposited data

Results flagged for a closer look

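Dixon's test for 4 values was applied to log2 of CPM with 0.5 added. A mouse stood far from the other 3 of its group, beyond the 95% limit of this test, in 9 of 152 sets of 4 mice. That is 5.92%, where chance gives about 1 in 20. The values in brackets are the gap to the nearest mouse divided by the group's range on that log2 scale. In control mouse 2 Iigp1 (0.901), Irgm1 (0.866) and Gbp3 (0.846) were high, and in control mouse 1 Trim30a (0.872) was low. In mouse 4 of the CCl4 and siLuc-LNP group Rigi (0.986) and Zbp1 (0.851) were high. In mouse 3 of the CCl4 and 4MU group Mx2 (0.939) and Irf9 (0.850) were low, and in mouse 4 of the CCl4 and siHAS2-LNP group, the library with the fewest counts, Oasl2 (0.894) was low.

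The effect of a treatment differed between livers with and without CCl4, by the interaction test, for 4 members: Zbp1 (1.92), Igtp (1.28) and Tap1 (0.904) with 4MU and Irf9 (0.599) with siHAS2-LNP, all as log2 differences. The 3 values with 4MU rest in part on control mouse 2: without it they were lower and 0 members passed the test.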

How the results depend on the processing

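The number of members called kept within 1.5 times of the main count in 179 cases and moved in 51, and of the single-gene results under each alternative 517 kept direction and side of the threshold, 77 lost the call, 7 gained it and 7 changed sign. The cause was not tested, beyond what each setting changes by its construction. With DESeq2 the count was 11 for 4MU against control (0 in the report), 6 for the 4MU interaction (3), 3 for CCl4 and 4MU against CCl4 (1), 2 for CCl4 and siHAS2-LNP against CCl4 and siLuc-LNP (0) and 2 for CCl4 and siHAS2-LNP against CCl4 (1). Without the low-count filter these were 16, 5, 4, 5 and 3, with 1 for CCl4 and siLuc-LNP against CCl4, 1 for siHAS2-LNP against control and 3, all lower, for the siHAS2-LNP interaction. With edgeR's own filter the interactions gave 1 (4MU) and 0 (siHAS2-LNP), and limma-voom gave 1 for the 4MU interaction. With size factors from DESeq2, CCl4 and 4MU against CCl4 gave 2. Fitted on the compared groups only, that comparison gave 6 and the siHAS2-LNP interaction 3, all lower, where the report's call was higher. With a log2 fold change of at least 1 also required, CCl4 and siHAS2-LNP against CCl4 gave 0, CCl4 against control 5, the CCl4 groups 3 and the siHAS2-LNP interaction 0. The sample titles do not tie the replicate numbers to a day or batch. A fit with the replicate block gave 0 for the 4MU interaction and 0 for the siHAS2-LNP interaction. It moved no other count by over 1.5 times.

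Leaving out each mouse in turn, the counts ran from 0 to 4 for the 4MU interaction, 0 to 1 for CCl4 and 4MU against CCl4, 0 to 1 for CCl4 and siHAS2-LNP against CCl4 and siLuc-LNP, 0 to 3 for CCl4 and siHAS2-LNP against CCl4, 0 to 7 for CCl4 and siLuc-LNP against CCl4, 6 to 11 for CCl4 against control and 0 to 1 for the siHAS2-LNP interaction. Signs changed for Ifit2 between the particles with CCl4 (0.039 by limma-voom, -0.96 to 0.14 over the mice), Iigp1 with siHAS2-LNP against control (-0.62 to 0.12), Stat2 with 4MU against control (-0.053 to 0.11) and Stat2 with CCl4 and siLuc-LNP against CCl4 (-0.043 to 0.35). With 2 CCl4 mice, and 7044386 counts in the shallowest library, changes of the size of the intervals given were not detectable.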

Other observations

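Outside the 38 members, upstream genes of the pathway were called in CCl4 against control and in CCl4 and 4MU against CCl4. In CCl4 and either particle against CCl4, 0 receptors and kinases, sensors and adaptors or transcription factors and brakes were called. With CCl4 and 4MU against CCl4, 3 of 15 RNA and DNA sensors and adaptors rose (8.28% of all genes) and 2 fell (10%). Mavs, the adaptor of RIG-I on mitochondria, was at 0.79, Eif2ak2, the kinase PKR, at -0.94 (adjusted p = 0.0199) and Cgas, the cytosolic DNA sensor, at -1.39. Of the 10 transcription factors and brakes, 1 was called higher and 1 lower in that comparison, and Irf2 rose by 0.85. Cxcl9, a chemokine driven by interferon gamma, fell by 2.53 with CCl4 against control (adjusted p = 0.000224), in the comparison in which 10 antiviral and sensor members rose.

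Kupffer cell markers, summed, had 97.2 to 136 CPM with CCl4 and siHAS2-LNP, 130 to 213 with CCl4 and siLuc-LNP and 262 to 283 with CCl4 only, and 4 of the 6 markers fell with CCl4 and siHAS2-LNP against CCl4, among them Clec4f at -1.73, Vsig4 at -2.03 and Timd4 at -1.28.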
